A study of Saccharomyces cerevisiae with 4 samples.

Results

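The 10 genes described here are the B-type cyclins *CLB1*, *CLB2*, *CLB3*, *CLB4*, *CLB5* and *CLB6*, the cyclin-dependent kinase gene *CDC28*, the polo-like kinase gene *CDC5*, and *CDC20* and *AMA1*, which encode activators of the anaphase-promoting complex. They were picked by systematic ORF name, by a rule that did not use their values but with earlier results of these data known. The names are YGR108W, YPR119W, YDL155W, YLR210W, YPR120C and YGR109C for *CLB1* to *CLB6*, YBR160W for *CDC28*, YMR001C for *CDC5*, YGL116W for *CDC20* and YGR225W for *AMA1*. All 10 were found among the 5371 ORFs of the deposited table. Ribosome profiling sequences the mRNA fragments that ribosomes protect (footprints, FPs), so that the FP level of an ORF reports how much it was being translated in the bulk culture. The profiled libraries were 2 from *dbp1Δ* cells and 2 from wild-type cells of the SK1 background of budding yeast, a strain that sporulates efficiently. In the *dbp1Δ* cells the ORF of *DBP1*, an RNA helicase gene, had been removed with Cas9 and a repair fragment, so that no marker was inserted. All cells were collected after 6 h in sporulation (SPO) medium, in the rich form of this medium with 2% potassium acetate. The labels give a cycloheximide treatment of 100 µM for 30 s before freezing, and the methods state the same figure in µg/ml. The strain list holds a markerless *dbp1Δ* diploid, homozygous for the deletion, and a wild-type diploid of otherwise the same genotype, and both carry trp1::hisG, his3::hisG, ura3, lys2 and ho::LYS2. The series design calls the libraries of a genotype biological replicates. Values are RPKM, footprint reads scaled to ORF length and to the mapped reads of the library, so levels of different genes can be set side by side. In a bulk culture, less translation per cell and fewer cells at the stage that translates a gene cannot be told apart.

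A B-type cyclin binds Cdc28, switches the kinase on and helps to choose its targets. In meiosis the kinase drives DNA replication, with Clb5 and Clb6, and then the nuclear divisions, with Clb1, Clb4 and, in the second, Clb3. Clb2, the main mitotic cyclin, is known to be shut off in meiotic cells. The transcription factor Ndt80 turns on *CDC5* and most of the cyclin genes as cells leave prophase, and the anaphase-promoting complex (APC/C), with Cdc20 or the meiosis-specific Ama1 bound, then marks cyclins and the securin Pds1 for destruction.

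The depth that the RPKM values imply lay between 4619168 and 5789193 reads per library. *DBP1* was at 0.578 and 0.449 RPKM in *dbp1Δ* replicates 1 and 2, against 164 and 147 RPKM in wild-type replicates 1 and 2, so the labels held. The median ORF stood at 33.3 and 32.0 RPKM in the *dbp1Δ* libraries and at 33.43 and 33.01 RPKM in the wild-type libraries. *dbp1Δ* replicate 1 stood apart from the other libraries. Pearson's r of log2(RPKM + 0.5) across 5338 ORFs lay between 0.978 and 0.981 for its 3 pairs, and between 0.989 and 0.992 for the pairs among the other 3 libraries. Each result below is therefore also given for each *dbp1Δ* library against the wild-type pair.

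Of the 10 genes, 9 were among the more strongly translated ORFs of these cells. Averaged over the 4 libraries, their levels lay above 90.2% of all listed ORFs in the case of *CLB6* and above 97.3% in the case of *AMA1*. *CLB2* was the exception, with a mean level at percentile 4.43. The reads behind the values were 1585 to 16070 per gene and library for these 9 genes, and 14 to 30 for *CLB2*.

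**Figure D1:**
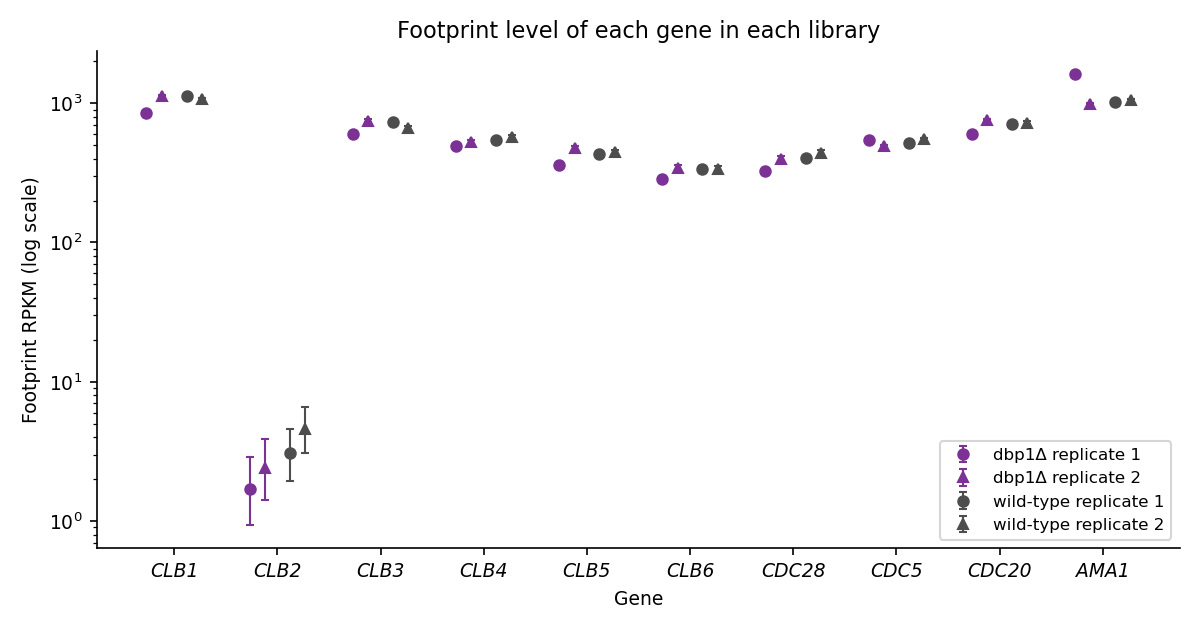
Footprint RPKM (log axis) of the 10 genes in each library, *dbp1Δ* in purple and wild-type in grey, with circles for replicate 1 and triangles for replicate 2. Bars are exact 95% counting intervals, which are smaller than most symbols. *CLB2* lies between 1.71 and 4.59 RPKM, and the other genes between 286 and 1612 RPKM.

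*CLB1*, a cyclin of the meiotic divisions, was at 844 and 1128 RPKM in *dbp1Δ* replicates 1 and 2, against 1125 and 1064 RPKM in wild-type replicates 1 and 2. *dbp1Δ* replicate 1 was the low library, while *dbp1Δ* replicate 2 lay just above both wild-type libraries. The mean was 986 ± 200.5 RPKM in *dbp1Δ* and 1094 ± 42.9 RPKM in wild type (SD, n = 2 libraries each), a difference within the spread of the *dbp1Δ* libraries. On the log2(RPKM + 0.5) scale, which understates changes of ORFs with low RPKM, the difference was -0.17, with a standard error of 0.18 and an adjusted p of 0.9998 (limma, Benjamini-Hochberg over all tested ORFs).

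*CLB3*, a cyclin gene whose mRNA is known to be kept from translation until the second meiotic division, was at 597 and 748 RPKM in *dbp1Δ* and at 738 and 663 RPKM in wild type. *CLB4*, the paralog of *CLB3*, was at 493 and 530.2 RPKM in *dbp1Δ* and at 544 and 569 RPKM in wild type. The *CLB3* values of the genotypes overlapped. For *CLB4* each *dbp1Δ* library was lower than each wild-type library, and the means differed by -8.13% of the wild-type mean. The log2 differences were -0.066 for *CLB3* and -0.12 for *CLB4*, with standard errors of 0.17 and 0.15. In every library the footprint level of *CLB4* was below that of *CLB3*, with ratios of 0.825 and 0.708 in *dbp1Δ* and 0.737 and 0.858 in wild type.

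*CLB2* was almost untranslated in all 4 libraries. The *dbp1Δ* libraries gave 1.71 RPKM (14 reads, replicate 1) and 2.42 RPKM (17 reads, replicate 2), against 3.07 RPKM (23 reads, replicate 1) and 4.59 RPKM (30 reads, replicate 2) in the wild-type libraries. *CLB1*, its paralog, exceeded it 494-fold and 467-fold in the *dbp1Δ* libraries and 367-fold and 232-fold in the wild-type libraries. The RPKM of *CLB2* thus amounted to at most 0.431% of that of *CLB1* in any library. How reads that match both paralogs were assigned is not given in the sources used here.

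Each *dbp1Δ* library was thus lower in *CLB2* than each wild-type library. The mean was 2.06 ± 0.5001 RPKM in *dbp1Δ* and 3.83 ± 1.07 RPKM in wild type (SD, n = 2 libraries each). With the reads summed, 31 in *dbp1Δ* and 53 in wild type, the rate ratio was 0.539, with an exact 95% interval of 0.334 to 0.855 that covers counting error only. The counting intervals of *dbp1Δ* replicate 2 (1.41 to 3.87 RPKM) and wild-type replicate 1 (1.94 to 4.603 RPKM) overlapped. The log2 difference of *CLB2* was -0.75 (standard error 0.37, unadjusted p = 0.0761 and adjusted p = 0.9998 from limma).

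The S-phase cyclins were well translated at this time, below the levels of *CLB1*, *CLB3* and *CLB4* in every library. *CLB5* was at 359 and 476 RPKM in *dbp1Δ* and at 435 and 443 RPKM in wild type. *CLB6* was at 286 and 342 RPKM in *dbp1Δ*, against 336 and 337 RPKM in wild type. For both genes *dbp1Δ* replicate 1 was below the wild-type pair and *dbp1Δ* replicate 2 above it, so the genotypes overlapped. The log2 differences were -0.085 (standard error 0.18) for *CLB5* and -0.11 (standard error 0.16) for *CLB6*.

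The genome places these cyclin genes in pairs. In the S288C annotation of assembly R64, *CLB1* and *CLB6* are next to each other on chromosome VII with their 3′ ends facing, and so are *CLB2* and *CLB5* on chromosome XVI, and the ORFs do not overlap. Within the first pair the *CLB6* level was 0.338 and 0.303 of the *CLB1* level in *dbp1Δ* and 0.299 and 0.317 in wild type. Within the second pair *CLB2* stood at 0.00475 and 0.00507 of *CLB5* in *dbp1Δ* and at 0.00706 and 0.0103 in wild type. *CLB6*, beside *CLB1*, was thus well translated, while *CLB2* was nearly silent beside *CLB5*.

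*CDC28*, which encodes the kinase that all 6 cyclins activate, was at 327 and 395 RPKM in *dbp1Δ* and at 401 and 440.5 RPKM in wild type. The genotypes did not overlap, with *dbp1Δ* the lower, and the means differed by -14.2% of the wild-type mean. This difference was smaller than the gap between the *dbp1Δ* libraries, and the log2 difference was -0.23 (standard error 0.16, unadjusted p = 0.204 and adjusted p = 0.9998 from limma).

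*CDC5*, the polo-like kinase gene needed for exit from prophase and for the divisions, was at 548 and 489 RPKM in *dbp1Δ* and at 514 and 549.7 RPKM in wild type. The values of the genotypes interleaved, and the log2 difference of -0.038 was the closest to 0 of the 10 genes. Its 95% interval from limma, -0.39 to 0.31, reached to both sides of 0.

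*CDC20*, the APC/C activator used in mitosis and meiosis, was at 597 and 757 RPKM in *dbp1Δ* and at 709.5 and 723 RPKM in wild type. *AMA1*, the meiosis-specific activator, was at 1612 and 989.7 RPKM in *dbp1Δ* and at 1015 and 1049.8 RPKM in wild type. *dbp1Δ* replicate 1 held the lowest *CDC20* value and the highest *AMA1* value of all libraries, while *dbp1Δ* replicate 2 was above the wild-type pair for *CDC20* and below it for *AMA1*. The level of *AMA1* relative to *CDC20* was 2.70 and 1.31 in *dbp1Δ*, against 1.43 and 1.45 in wild type. *AMA1* was the only 1 of the 10 genes with a higher mean in *dbp1Δ*, and its log2 difference was 0.29 (standard error 0.23, unadjusted p = 0.241 and adjusted p = 0.9998 from limma).

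In *dbp1Δ* the order of the mean levels was *AMA1*, *CLB1*, *CDC20*, *CLB3*, *CDC5*, *CLB4*, *CLB5*, *CDC28*, *CLB6* and *CLB2*. In wild type it was *CLB1*, *AMA1*, *CDC20*, *CLB3*, *CLB4*, *CDC5*, *CLB5*, *CDC28*, *CLB6* and *CLB2*. Neighbours whose library ranges overlapped in both genotypes were *CDC20* with *CLB3*, *CDC5* with *CLB4*, and *CLB5* with *CDC28*. *AMA1* and *CLB1* overlapped in *dbp1Δ* but not in wild type, and so did *CDC28* and *CLB6*. The other neighbours did not overlap in either genotype.

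Within a library, the make-up of the cyclin footprints varied little. *CLB1* supplied 32.7% and 34.9% of the summed RPKM of the 6 cyclins in *dbp1Δ* and 35.4% and 34.5% in wild type. *CLB3* supplied 23.1% and 23.2% in *dbp1Δ*, against 23.2% and 21.5% in wild type. The shares of *CLB4*, *CLB5* and *CLB6* also overlapped between genotypes, and they lay between 10.6% and 19.1% over these genes and libraries. Only the share of *CLB2* kept the genotypes apart, at 0.0662% and 0.0748% in *dbp1Δ* and 0.0964% and 0.149% in wild type.

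**Figure D2:**
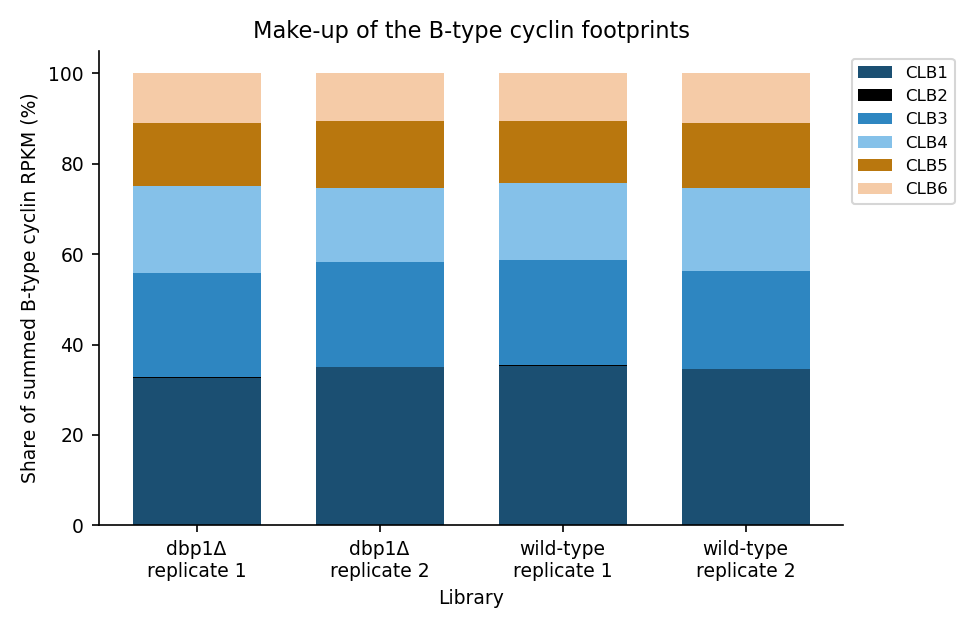
Share of the summed RPKM of the 6 B-type cyclins (%, y axis) that each cyclin supplied in each library, *dbp1Δ* libraries on the left. *CLB1* makes up 32.7% to 35.4% in all 4 libraries, and *CLB2*, at 0.149% or less, is too thin to see.

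Set against *CDC28*, the 6 cyclins together had 7.89 and 8.17 times its level in *dbp1Δ* and 7.93 and 6.99 times in wild type. These ratios overlapped. Their mean was 8.03 ± 0.196 in *dbp1Δ* and 7.46 ± 0.661 in wild type (SD, n = 2 libraries each). Taken singly, *CLB5* stood at 1.10 and 1.21 times the *CDC28* level in *dbp1Δ* and 1.08 and 1.01 times in wild type, and *CLB6* at 0.873 and 0.865 times in *dbp1Δ*, against 0.838 and 0.765 times in wild type. The genotypes did not overlap in either ratio, with *dbp1Δ* the higher, and the same held for *CDC20*, at 1.82 and 1.92 times the *CDC28* level in *dbp1Δ* and 1.77 and 1.64 times in wild type. *CLB2* was apart in the other direction, at 0.00522 and 0.00611 times in *dbp1Δ*, against 0.00765 and 0.0104 times in wild type, and the ratios of *CLB1*, *CLB3*, *CLB4*, *CDC5* and *AMA1* overlapped. On this scale, where *CDC28* itself was lower in *dbp1Δ*, 29.6% of the other 5337 tested ORFs were higher in *dbp1Δ* without overlap and 2.12% lower, beside 3 and 1 of the 9 genes. Without scaling to *CDC28*, the summed cyclin level was 2581 and 3227 RPKM in *dbp1Δ*, against 3181 and 3081 RPKM in wild type, with *dbp1Δ* replicate 1 the low library.

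The libraries of 1 genotype were also set against each other. Between the *dbp1Δ* libraries, 8 of the 10 genes were lower in replicate 1 than in replicate 2, and *CDC5* and *AMA1* were higher. For *CLB1* the ratio of replicate 1 to replicate 2 was 0.749 (exact 95% interval 0.724 to 0.774, for counting error only), and for *CLB5* it was 0.754 (0.715 to 0.796). For *AMA1* it was 1.63 (1.59 to 1.67), which lay at percentile 90.7 of all tested ORFs. The counting interval of the *dbp1Δ* ratio included 1 for *CLB2* only.

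Between the wild-type libraries the ratios lay between 0.911 for *CDC28* and 1.11 for *CLB3*, leaving out *CLB2*. For *CLB2* the ratio was 0.707 (0.323 to 1.52) in *dbp1Δ* and 0.669 (0.371 to 1.19) in wild type. The median log2 ratio of replicate 1 to replicate 2 over the 10 genes was -0.30 in *dbp1Δ*, beside 0.049 over all ORFs, and -0.039 in wild type, beside 0.0088 over all ORFs.

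**Figure D3:**
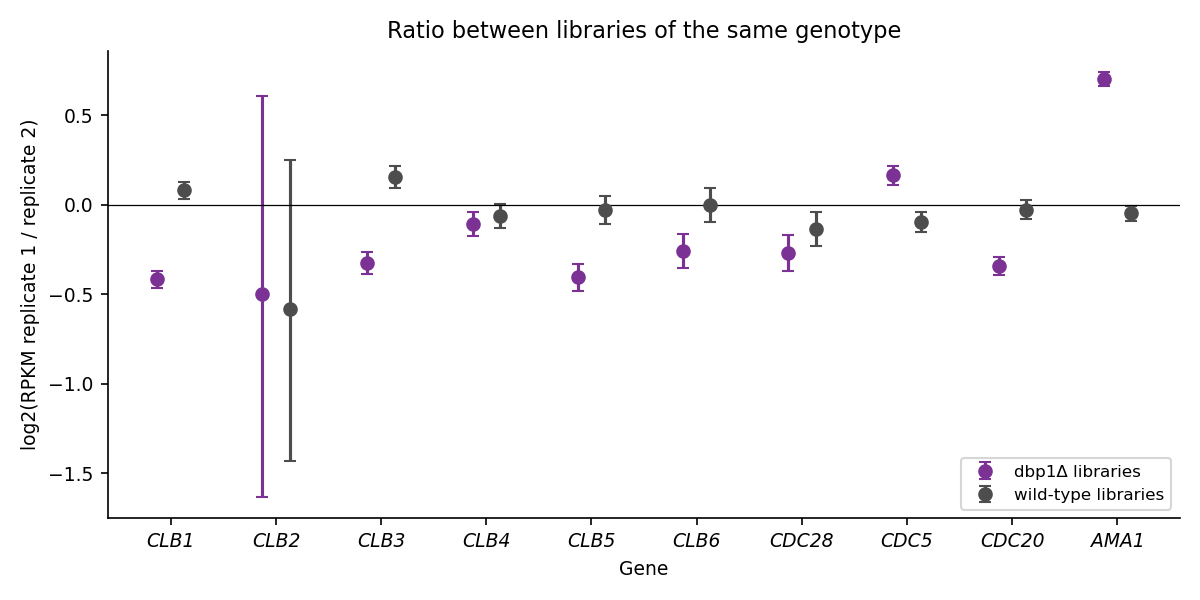
Log2 ratio of replicate 1 to replicate 2 (y axis) for each gene, for the *dbp1Δ* libraries in purple and the wild-type libraries in grey, with exact 95% counting intervals. *AMA1* and *CDC5* lie above 0 in *dbp1Δ*, at 0.70 and 0.17, and the other 8 genes lie below.

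The question put to the genotypes is whether loss of the *DBP1* ORF, with no cassette in its place, changed translation of these genes. In limma, 0 of the 10 genes passed an adjusted p under 0.05, beside 0.0375% of the 5338 ORFs tested. At an unadjusted p under 0.05 there were 0 of the 10 genes and 89 of the 5338 ORFs. Without the trend in the prior variance, *CLB2* had an unadjusted p of 0.0248 and an adjusted p of 0.9999 in limma, beside 111 ORFs under an unadjusted 0.05. An adjusted p under 0.05 was also reached by 0 of the 10 in limma voom on reads recovered from the RPKM values. The log2 difference was negative for 9 genes and positive for 1, with a median of -0.099, beside a median of -0.033 over all tested ORFs, of which 57.0% were negative. With *CLB2* left aside, the 95% intervals reached down to -0.60 (*CDC28*) and up to 0.82 (*AMA1*). A missed threshold does not show equal levels, and with 2 libraries a genotype an exact permutation test of 1 gene cannot give a two-sided p below 0.3333.

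**Figure D4:**
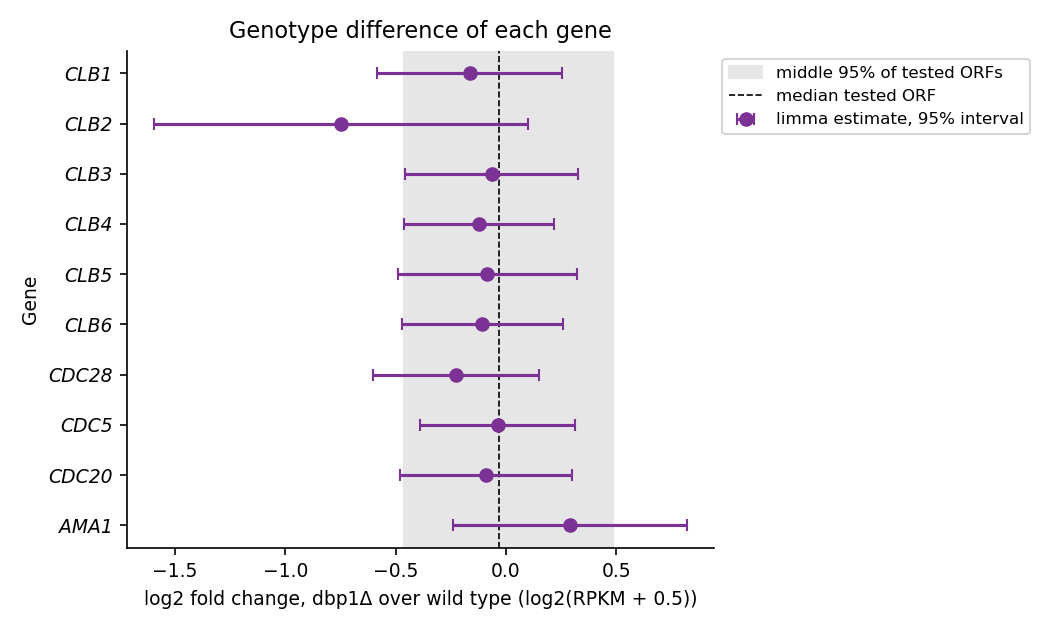
Log2 difference of *dbp1Δ* over wild type (x axis, log2(RPKM + 0.5)) for each gene with its 95% interval from limma. The grey band holds the middle 95% of tested ORFs and the dashed line is their median. Every interval includes 0, and the points lie between -0.75 (*CLB2*) and 0.29 (*AMA1*).

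Both *dbp1Δ* libraries lay below both wild-type libraries for 3 of the 10 genes, *CLB2*, *CLB4* and *CDC28*, beside 15.3% of all tested ORFs. They lay above for 0 of the 10, beside 9.59% of ORFs, and the genotypes were apart in either direction for 24.9% of ORFs. With each library centred on its median, only *CLB2* of the 3 kept the genotypes apart, beside 12.16% of ORFs lower and 12.03% higher in *dbp1Δ* under that centring. Under quantile normalization all 3 stayed lower in *dbp1Δ* without overlap, beside 12.7% of ORFs lower and 12.2% higher.

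Set alone against the wild-type pair, the *dbp1Δ* libraries gave different pictures. For *dbp1Δ* replicate 1 (without replicate 2), the log2 difference was negative for 8 genes, with a median of -0.25 over the 10. *AMA1*, at 0.64 (adjusted p = 0.00869), and *CLB1*, at -0.37 (adjusted p = 0.0312), passed in limma. That is 2 of 10 genes, 1 in each direction, beside 9.7% of ORFs called in all, 4.08% higher and 5.62% lower. This fit compares 1 library with 2 and assumes that it varies as the wild-type libraries do. For *dbp1Δ* replicate 2 (without replicate 1), 5 genes were negative and 5 positive, the median was -0.019, and 0 of 10 genes passed, beside 0.0187% of ORFs. *CLB1* was then at 0.044 and *AMA1* at -0.060, so the direction of both rested on *dbp1Δ* replicate 1. The signs of *CLB3*, *CLB5*, *CLB6* and *CDC20* turned without it too.

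Stage markers moved with *dbp1Δ* replicate 1. The 14 early meiotic genes, which act in recombination and chromosome pairing (*HOP1*, *DMC1* and others), summed to 4197 and 2640 RPKM in *dbp1Δ* and to 3224 and 2915 RPKM in wild type. Each of the 14 was higher in *dbp1Δ* replicate 1 than in *dbp1Δ* replicate 2, by 0.75 in the median on the log2 scale. Their differences between genotypes ran from 0.021 for *REC104* to 0.19 for *MND1*, with 0 past the threshold in limma. Of the 15 middle meiotic genes in the table, induced as the divisions begin, 11 were lower in *dbp1Δ* replicate 1 and 4 higher, with a median of -0.27, beside -0.30 for the 10 division genes. Of these middle genes 0 passed in limma, and the log2 differences between genotypes ran from -0.17 for *SPO20* to 0.58 for *SPS4*. Their summed RPKM was 73294 and 66619 in *dbp1Δ*, against 64212 and 67087 in wild type. Of these sums *SPS4* alone held 24202 and 10956 RPKM in *dbp1Δ*, against 9923 and 11885 RPKM in wild type. None of these markers was at 0 in any library, and their part in the values of the division genes was not tested.

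The partners of these genes were read from lists. Of the 13 APC/C subunits, 0 passed in limma, 11 had a negative log2 difference, and the median was -0.092. Beside this list and those below, 0.0375% of all tested ORFs passed. Over all tested ORFs 57.0% were negative, and the median was -0.033. Between the *dbp1Δ* libraries, 10 of the 13 subunits were lower in replicate 1 than in replicate 2 and 3 higher. The median log2 ratio was -0.26, beside 0.049 over all ORFs. *CDC27*, a subunit that Cdc20 and Ama1 contact, was 1 of the 3. It was at 927 and 615 RPKM in *dbp1Δ*, against 646 and 664 RPKM in wild type. Its log2 difference, 0.20, was the highest of that list, and that of *MND2*, which encodes the subunit that holds Ama1 back in prophase, was the lowest at -0.17. *MND2* was also the subunit with the lowest level, at 55.1 and 40.5 RPKM in *dbp1Δ* and 52.1 and 54.3 RPKM in wild type. Its *dbp1Δ* replicate 1 lay above both wild-type libraries, and only *dbp1Δ* replicate 2 lay below them.

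Among 17 genes of anaphase and exit from the divisions, 0 passed in limma and the median log2 difference was -0.079. They ranged from *DBF2*, a kinase gene of the mitotic exit network, at -0.36 to *TEM1*, the GTPase gene of that network, at 0.23. *DBF2* was at 19.7 and 33.8 RPKM in *dbp1Δ* and at 30.6 and 36.1 RPKM in wild type. The securin gene *PDS1*, a target of the APC/C, was at 449 and 681 RPKM in *dbp1Δ* and at 614 and 624 RPKM in wild type, and the APC/C activator gene *CDH1* at 233 and 361 RPKM, against 341 and 333 RPKM. Both were named after their values were seen, and for both *dbp1Δ* replicate 1 was the low library. Of the 17 genes, 10 were lower in *dbp1Δ* replicate 1 than in *dbp1Δ* replicate 2 and 7 higher. Over all tested ORFs, 2433 were lower and 2905 higher.

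Among the 9 spindle checkpoint and chromosomal passenger genes, 0 passed in limma, with a median log2 difference of -0.031, a low of -0.20 for *BUB3* and a high of 0.19 for *MAD1*. Of the 9 other partners and regulators of the kinase, *CLN2* and *FAR1* were not analysed here and 0 of the other 7 passed. *CLN3*, a G1 cyclin gene, was at 1.03 and 2.15 RPKM in *dbp1Δ* and at 2.58 and 1.93 RPKM in wild type, a level near that of *CLB2*. It had the lowest log2 difference of that list, -0.44, and *MIH1*, the phosphatase gene that opposes Swe1 on Cdc28, the highest, 0.053.

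Of the 7 meiotic controls of the divisions, 0 passed in limma. *NDT80*, the activator of middle genes, was at 1272 and 1653 RPKM in *dbp1Δ* and at 1609 and 1607 RPKM in wild type, the lowest log2 difference of that list at -0.15. *SUM1*, which encodes the repressor of the same promoters, was at 13.1 and 9.32 RPKM in *dbp1Δ*, against 6.94 and 8.58 RPKM in wild type. The log2 difference of 0.49 was the highest of the list (standard error 0.27, adjusted p = 0.9998 from limma). The genotypes did not overlap for *SUM1*, with *dbp1Δ* the higher. Of the 7 genes, 1 was higher and 1 lower in *dbp1Δ* without overlap, beside 9.59% and 15.3% of all tested ORFs.

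**Figure D5:**
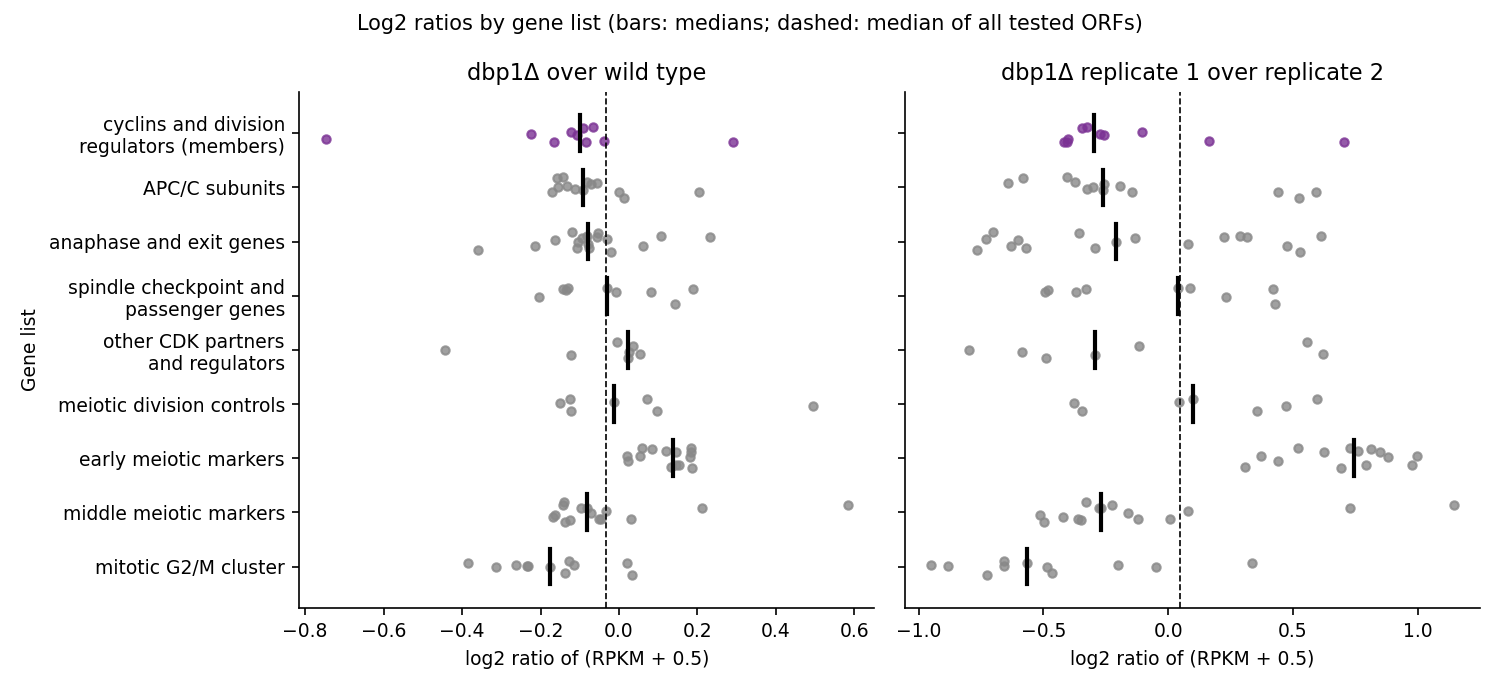
Log2 ratios of (RPKM + 0.5) for the 10 division genes (purple) and the other lists (grey), for *dbp1Δ* over wild type on the left and *dbp1Δ* replicate 1 over replicate 2 on the right. Each point is a gene, bars are list medians and dashed lines the median of all tested ORFs. On the right the early meiotic markers lie around a median of 0.75 and the division genes around -0.30, with *AMA1* at 0.70.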

How the data were processed

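The authors mapped footprint reads to the SK1 genome, counted reads per ORF and deposited RPKM values, in which reads are scaled to gene length and to the mapped reads of the library, and without scaling between libraries. The processing notes name Bowtie2. Its version, the annotation and any ORF filter are not given in the sources used here. Groups and replicates came from the sample titles.

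Genotypes were compared on log2(RPKM + 0.5) by limma (3.58.1, under R 4.3.3), with genotype as the only term and a trended prior variance, over the 5338 ORFs averaging 1 RPKM or more. P-values were adjusted by Benjamini-Hochberg. Other steps used Python 3.11.15, scipy 1.17.1 and matplotlib 3.10.9. The fit and the depth step were tested on simulated data.

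Read depth was recovered from the steps of the RPKM values. With the gene length of the S288C annotation (assembly R64, in which 5311 of 5371 ORFs had a row) less 60 nt, 88.5% of values lay within 0.02 reads of a whole number. Of the 10 genes, 8 gave whole reads in all libraries. *CLB5* needed a length change of -3 nt, and *AMA1*, which has an intron, one of -93 nt. Intervals from these reads are exact Clopper-Pearson intervals at 95% and cover counting error only, since amplified reads are not independent molecules.

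The members and lists were chosen with earlier results of these data known, and the lists beside the members were written from general knowledge. Besides the 10 genes, those named were *DBP1* and, from each list, any ORF past the threshold and the ORFs with the highest and lowest log2 difference. *PDS1*, *CDH1* and *BUD3* were added after their values were seen, and *HOP1* and *DMC1* only as examples of their list. Levels relative to *CDC28* over all ORFs were also computed after the data were seen. Alternatives were other pseudocounts and filters, a prior without the trend, quantile normalization, median centring, a replicate block, limma voom on recovered reads and leaving out each library. 1 gene that this rule names is not reported here. No sequences were analysed here.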

Additional observations from a re-analysis of the deposited data

How the results depend on the processing

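The count of ORFs past an adjusted p of 0.05 was 2. It was 25 with the replicate number as a block (replicate block), 24 with the block and median centring, 28 with crossed pairing, an alternative chosen after seeing the data, and 1 with limma voom on recovered reads. With each library left out it lay between 1 and 518, the highest without *dbp1Δ* replicate 2. The labels do not say that equal numbers were processed together, so the numbers were not taken to pair the libraries. Deviations of same-numbered libraries correlated at -0.14 across ORFs. With 2 libraries a genotype, this value cannot show whether the numbers pair the libraries. Of the 10 genes, 0 passed with either block, and between 0 and 2 with each library left out. Their median log2 difference lay between -0.25 and -0.019 in those fits. The count of genes whose genotypes did not overlap was 1 with median centring, where 12.16% of all ORFs were lower and 12.03% higher. With quantile normalization this count was 3, beside 12.7% of all ORFs lower and 12.2% higher. When libraries were omitted in turn the count lay between 3 and 10. It was 10 without *dbp1Δ* replicate 1, beside 71.2% of all ORFs, and 9 without *dbp1Δ* replicate 2, beside 82.4%, since 1 library then faces 2. It was 4 without wild-type replicate 1, beside 48.9%, and 3 without wild-type replicate 2, beside 47.4%. The cause was not tested for the other changes.

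With each library left out, the log2 difference ranged from -0.37 to 0.044 for *CLB1*, from -0.23 to 0.10 for *CLB3*, from -0.29 to 0.12 for *CLB5*, from -0.24 to 0.023 for *CLB6*, from -0.12 to 0.044 for *CDC5*, from -0.26 to 0.080 for *CDC20* and from -0.060 to 0.64 for *AMA1*. It stayed negative for *CLB2*, *CLB4* and *CDC28* under every alternative in which they were tested. *CLB2* could not be tested at a mean of at least 10 RPKM. The other alternatives turned no sign and changed no call of the 10 genes.

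The cyclin level per *CDC28* in *dbp1Δ* was 1.08 times that in wild type, between 1.01 and 1.15 with each library left out. With the median ORF as the scale it was 0.942. With *CDC5*, *CDC20* or *AMA1*, scales chosen after seeing the data, it was 0.959, 0.982 and 0.801. Depth limits *CLB2* most, at 14 to 30 reads a library.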

Other observations

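*CLB2* belongs to a cluster of genes transcribed together at the G2 to M transition of mitosis, and other genes of this cluster could be read beside it. The 11 such genes listed leave out the 10 genes described above, so their values do not stand for the whole cluster. All 11 were in the table. Their median level was 17.0 and 27.1 RPKM in *dbp1Δ* replicates 1 and 2, against 27.7 and 26.4 RPKM in wild-type replicates 1 and 2, above the 1.71 to 4.59 RPKM of *CLB2*. *BUD3*, a bud site gene named after its values were seen, was the closest to *CLB2* in level, at 3.63 and 2.78 RPKM in *dbp1Δ* and 2.80 and 3.48 RPKM in wild type. None of the 11 passed an adjusted p under 0.05 in limma, and their median log2 difference was -0.18, beside -0.033 over all tested ORFs. The highest was *KIN3*, a kinase gene, at 0.034. Between the *dbp1Δ* libraries, 10 of the 11 were lower in replicate 1, and the median log2 ratio of replicate 1 to replicate 2 was -0.57.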
